A study of Homo sapiens with 12 samples.

Results

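Genes were compared between SCC-15 cells carrying FMOD short hairpin 1 (shRNA1) and SCC-15 cells carrying FMOD short hairpin 3 (shRNA3), each read in 3 RNA-seq libraries. A gene was kept where all 3 shRNA3 libraries lay above, or all 3 below, every shRNA1 library in CPM, counts scaled to the size and composition of each library. By this rule 5298 of the 17532 genes tested were kept, 2646 higher and 2652 lower with shRNA3. Another 7394 genes lay beyond shRNA1 in shRNA3 libraries 1 and 2 but not in library 3, and were held apart. SCC-15 is an established human cell line from an oral squamous cell carcinoma. The series holds 12 libraries in 4 groups of 3: a negative-control hairpin (NC), shRNA1, shRNA2 and shRNA3, all harvested after 48 hours. The last 3 groups each carry a hairpin against the same gene, FMOD, which encodes fibromodulin, and the series title ties that gene to EGFR signalling. Both groups in the comparison of shRNA1 with shRNA3 were therefore labelled as carrying an FMOD hairpin. The labels do not say which vector carried the hairpins, nor whether each line was a clone or a pool.

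A short hairpin RNA is processed by DICER1 into a small double-stranded RNA, whose guide strand leads Argonaute proteins such as AGO2 to matching transcripts. Whether DROSHA also acted on these hairpins is not known, as the labels do not name the vector. Partners of Argonaute, among them the TNRC6 proteins, carry the silencing forward. Hairpins of different sequence against one transcript share their intended target and differ in the other transcripts that their guide strands can pair with. Separately derived lines can also differ for reasons that have nothing to do with the hairpin, and as the labels name no separate lines per hairpin, the hairpin and the line cannot be told apart here. In bulk RNA, fewer cells of a type and less RNA per cell cannot be told apart either.

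Promoter sequences are shown for 4 genes that were themselves called and kept higher with shRNA3 and were chosen after their values were seen: the metallothioneins MT2A and MT1X, and ASNS and HERPUD1 of the ATF4 and unfolded protein response. Each is the 250 bases before the annotated start in RefSeq, build GRCh38.p14, on the gene's own strand. Metallothioneins are small cysteine-rich proteins that bind zinc and copper, and their promoters are known for metal response elements. The letters TGCACNC or TGCGCNC, on either strand, are in capitals in the metallothionein promoters. MT2A lies at chr16:56608334-56608583 on the plus strand and held 7 matches. MT1X lies at chr16:56682220-56682469 on the plus strand and held 4 matches.
MT2A: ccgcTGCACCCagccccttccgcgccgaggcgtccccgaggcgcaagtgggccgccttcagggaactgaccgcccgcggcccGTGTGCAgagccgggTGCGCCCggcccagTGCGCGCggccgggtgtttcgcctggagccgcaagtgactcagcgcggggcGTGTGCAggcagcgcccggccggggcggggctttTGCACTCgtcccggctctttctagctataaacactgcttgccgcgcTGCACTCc
MT1X: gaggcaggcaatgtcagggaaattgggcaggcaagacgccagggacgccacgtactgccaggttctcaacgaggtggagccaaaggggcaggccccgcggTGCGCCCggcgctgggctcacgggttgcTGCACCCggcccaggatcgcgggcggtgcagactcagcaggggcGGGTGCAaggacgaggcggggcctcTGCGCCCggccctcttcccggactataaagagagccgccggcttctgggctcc

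ATF4 is a transcription factor of the amino acid and endoplasmic reticulum stress responses, and it binds composite elements shared with C/EBP proteins. The letters TGATGNAA, on either strand, are in capitals in the next pair. ASNS, asparagine synthetase, has the promoter entry shown at chr7:97872409-97872658 on the minus strand with 1 match. Its other RefSeq entry, at chr7:97872166-97872415, held 0 matches and is not shown. HERPUD1, a protein of endoplasmic reticulum-associated degradation, has its promoter at chr16:56931892-56932141 on the plus strand with 1 match.
ASNS: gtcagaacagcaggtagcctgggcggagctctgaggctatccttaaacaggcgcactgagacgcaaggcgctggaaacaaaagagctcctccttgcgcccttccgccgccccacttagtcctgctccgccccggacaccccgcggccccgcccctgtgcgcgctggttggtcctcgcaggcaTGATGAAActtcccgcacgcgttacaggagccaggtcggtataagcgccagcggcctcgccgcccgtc
HERPUD1: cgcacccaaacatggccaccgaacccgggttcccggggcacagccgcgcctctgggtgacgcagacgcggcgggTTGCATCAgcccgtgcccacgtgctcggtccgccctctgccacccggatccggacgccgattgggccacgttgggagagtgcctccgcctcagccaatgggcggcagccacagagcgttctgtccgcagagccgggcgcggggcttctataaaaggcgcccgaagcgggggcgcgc
Of the 35116 RefSeq promoters of this length, 24.8% held at least 1 match to the metallothionein letters and 3.14% held TGATGNAA. All 4 metallothionein entries found in RefSeq held the first motif. Of 11 entries found for kept and called genes of the ATF4 list, 2 held the second, those shown for ASNS and HERPUD1. The 11 entries belong to ATF4, DDIT3, ASNS, PHGDH, PSAT1, HERPUD1 and PDIA4, some with more than 1 entry. SLC7A11, kept and called lower, had no entry among them. A match is a run of letters and not a measured binding site.

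Library totals ran from 17286934 to 19567192 counts over the 12 libraries, so depth was close to even. The shRNA3 libraries did not form a tight group. Libraries 1 and 2 correlated at 0.995 with each other across genes in log2(CPM + 1), while library 3 correlated at 0.919 and 0.916 with them and at 0.979 to 0.982 with the shRNA1 libraries. These are correlations across genes that share libraries and are given as a description. The composition factor was 0.771 and 0.795 in libraries 1 and 2 and 1.06 in library 3, against 1.03 to 1.06 with shRNA1. Histone genes took 0.147% and 0.167% of the counts in libraries 1 and 2, 0.0657% in library 3 and 0.0341 to 0.0536% with shRNA1. Their part in the results was not tested. Results are therefore given by library, or with library 3 as the only shRNA3 library, a fit in which that lone library is taken to vary as the other groups do. The rule used these same 6 libraries, so fold changes and p-values of kept genes, with library 3 alone too, describe them and are no independent test. Of the 12 oral keratinocyte markers, 6 were called higher and 1 lower with shRNA3, and their summed level was 2950 to 3617 CPM with shRNA1 and 3216 to 8167 CPM with shRNA3. The summed markers of 3 other cell types were higher in every shRNA3 library than in every shRNA1 library, all at low levels. Fibroblast markers summed to 15.6 to 21.8 CPM with shRNA1 and 33.1 to 86.7 CPM with shRNA3. The ranges were 4.43 to 6.5 and 8.82 to 14.3 CPM for endothelium, and 16.1 to 21.8 and 27.7 to 71.9 CPM for neuroendocrine cells. Each set had 1 gene called higher and 0 lower, of 4 fibroblast, 3 endothelial and 2 neuroendocrine markers tested. Over all genes tested the shares were 18.1% and 11.9%. The fibroblast sum was mostly COL1A1, and the 4 tested fibroblast markers had a median log2 fold change of -0.04. The leukocyte sums, at 5.73 to 9.3 and 5.98 to 12 CPM, and the melanocyte sums, at 3.48 to 6.3 and 6.06 to 10.9 CPM, overlapped, and 2 of 9 leukocyte and 2 of 6 neuroendocrine markers had 0 counts in all 12 libraries.

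FMOD itself had 0 counts in every shRNA1, shRNA2 and shRNA3 library, which allows up to 0.153 to 0.174 CPM by counting error alone. The NC libraries held 2, 2 and 3 counts of it, so neither the depth of knockdown nor a difference in knockdown between hairpins was detectable at this depth. EGFR, the receptor named in the title, stood at 315, 284 and 338 CPM with shRNA1 and at 134, 109 and 253 CPM with shRNA3. All 3 shRNA3 libraries were below shRNA1, and library 3 was the nearest to it. NC held 1372, 1271 and 1283 CPM of EGFR, and shRNA2 held 225, 250 and 237 CPM. Every FMOD hairpin library was thus far below NC. The log2 fold change of EGFR for shRNA3 minus shRNA1 was -0.91 with a standard error of 0.25 (adjusted p = 0.0226, edgeR). With library 3 as the only shRNA3 library the value was -0.29 (adjusted p = 0.171, edgeR).

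Across the 17532 genes tested, edgeR's quasi-likelihood test called 5258 (30.0%) at an adjusted p under 0.05, 3178 higher (18.1%) and 2080 lower (11.9%) with shRNA3. The rule of no overlap kept 30.2% of the genes, 15.1% in each direction, and 3916 genes were both called and kept. Among the called genes, 1065 higher and 255 lower ones were beyond shRNA1 in libraries 1 and 2 alone. The difference in a kept gene was usually smaller in library 3: measured from the shRNA1 mean, it came to a median of 45.6% of the mean difference of libraries 1 and 2 for genes kept higher, and to 40.2% for genes kept lower. In 2239 kept genes library 3 reached 50% or more. The kept count can only rise when a library is left out, as the rule then has fewer libraries to meet. It would be 8008 without shRNA1 library 3 and 12692 without shRNA3 library 3. Without libraries 1 and 2 the test called 1547 of 19093 genes (8.1%), 932 higher (4.88%) and 615 lower (3.22%). Without library 3 it called 5663 higher (31.0%) and 5910 lower (32.4%) of 18242. Fitted on the 6 libraries alone, with no NC or shRNA2 library to share the estimate of spread, the test called 0 genes, while 4295 had an unadjusted p under 0.05 there. Leaving out 1 library lowered the count to 2224 without shRNA1 library 1, 1788 without shRNA1 library 2, 1870 without shRNA3 library 1 and 1875 without shRNA3 library 2.

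**Figure D1:**
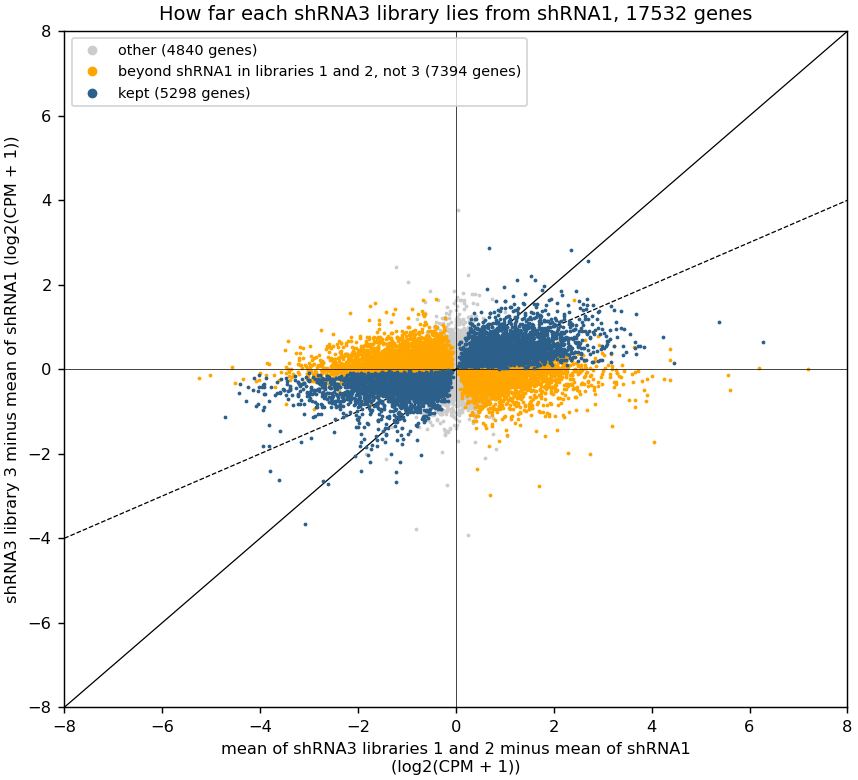
Each point is 1 of 17532 genes; the x axis is the mean of shRNA3 libraries 1 and 2 minus the shRNA1 mean and the y axis is shRNA3 library 3 minus the shRNA1 mean, both in log2(CPM + 1). Kept genes are blue and genes beyond shRNA1 in libraries 1 and 2 alone are orange; the solid line marks equal differences and the dashed line marks a library 3 difference of 50% of the other, and most kept genes lie between the dashed line and the x axis.

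The 24 genes described next were called, kept, had library 3 at 50% or more of the difference, and had the widest gaps between the nearest libraries of the groups, 12 in each direction. The higher ones were of mixed function. MT1F, a metallothionein (ENSG00000198417, chromosome 16, 56657694 to 56660698), stood at 5.27, 4.07 and 1.75 CPM with shRNA1 and at 25.6, 30.5 and 25.3 CPM with shRNA3. The 3 shRNA3 values lay close together and far from shRNA1, at a log2 fold change of 2.87 with a standard error of 0.33 (adjusted p = 0.00152, edgeR), or 7.32-fold. NC read 14.8, 15.8 and 14.8 CPM, between the hairpins. VILL, a villin-like actin-binding protein (ENSG00000136059, chromosome 3, 37988059 to 38007188), stood at 0.895, 1.5 and 1.55 CPM with shRNA1 and at 8.97, 9.4 and 7.35 CPM with shRNA3. Its NC libraries read 1.31, 1.13 and 1.12 CPM, level with shRNA1, and its shRNA2 libraries read 13.5, 10.1 and 12 CPM. CCL28, a mucosal chemokine made by epithelia, stood at 0.597, 0.63 and 0.619 CPM with shRNA1 and at 7.42, 6.49 and 3.68 CPM with shRNA3, 9.4-fold higher (adjusted p = 0.00152, edgeR). UNC5B, a netrin receptor, stood at 41.2, 36.7 and 26.4 CPM with shRNA1 and at 232, 217 and 111 CPM with shRNA3. Its library 3 was at less than the other 2 and still above every shRNA1 library.

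The other 8 of the 12 higher genes had varied roles. RMI2, which works with the BLM helicase in dissolving recombination intermediates, was 4.49-fold higher, at 6.42, 7.12 and 9.19 CPM against 35.5, 38.7 and 27.8 CPM. FUT3, the fucosyltransferase of the Lewis blood group antigens, was 8.75-fold higher, and DAPK2, a death-associated calmodulin-dependent kinase, was 6.84-fold higher, with library 3 at 85.1% and 75.4% of the difference of libraries 1 and 2. ANKRD22 was the most even of them between libraries, at 4.23, 6.44 and 6.76 CPM with shRNA1 and 23.9, 20.2 and 23.6 CPM with shRNA3. The fold was 4.18 for the zinc finger gene ZNF467, 4.08 for the axonemal dynein gene DNAH2, 7.38 for TNFRSF13C, the receptor of the cytokine BAFF, and 5.51 for the metalloproteinase gene MMP28. Library 3 reached 76% of the difference in ZNF467, 87% in DNAH2, 64.1% in TNFRSF13C and 59.7% in MMP28, so the 12 genes were not equally even.

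**Figure D2:**
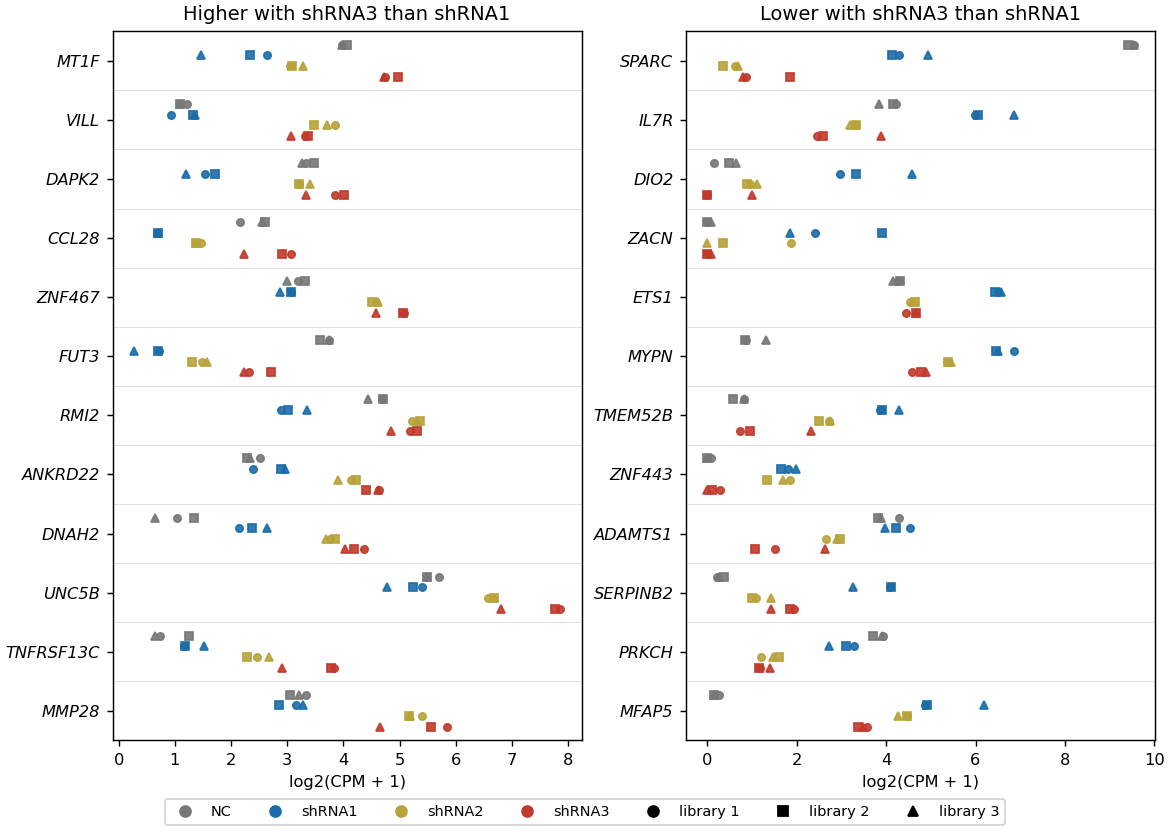
Values of log2(CPM + 1) on the x axis for the 12 genes higher and the 12 genes lower with shRNA3 that had the widest gaps to shRNA1; colours are the 4 groups and marker shapes the 3 libraries of each. In each row the 3 red shRNA3 points lie on one side of the 3 blue shRNA1 points, while the grey NC and ochre shRNA2 points take different places from gene to gene.

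Among the genes that were lower with shRNA3, the widest gap belonged to SPARC, a secreted matrix glycoprotein (ENSG00000113140, chromosome 5, 151661096 to 151687165). SPARC stood at 18.4, 16.6 and 29.8 CPM with shRNA1 and at 0.816, 2.62 and 0.745 CPM with shRNA3. The log2 fold change of SPARC was -3.99 with a standard error of 0.41 (adjusted p = 0.00152, edgeR), and -4.83 with library 3 alone. NC held 748, 686 and 742 CPM of SPARC, far above every hairpin group. IL7R, the interleukin 7 receptor alpha chain, stood at 62.8, 65.3 and 115 CPM with shRNA1 and at 4.45, 4.96 and 13.8 CPM with shRNA3, 10.4-fold lower. The NC libraries read 17.5, 16.8 and 13.4 CPM of IL7R, so that shRNA1 lay above NC and shRNA3 at or below it. ETS1, a transcription factor with many matrix and protease targets (ENSG00000134954, chromosome 11, 128458761 to 128587558), had the lowest adjusted p of the named genes. ETS1 stood at 89.2, 85.8 and 93.4 CPM with shRNA1 and at 20.6, 24.3 and 24.6 CPM with shRNA3, a log2 fold change of -1.95 with a standard error of 0.13 (adjusted p = 0.000117, edgeR). NC at 18.2, 18.7 and 16.7 CPM and shRNA2 at 22.2, 23.9 and 23.3 CPM lay near shRNA3, with shRNA1 the highest of the 4 groups.

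SERPINB2, an inhibitor of plasminogen activators, stood at 16.1, 16.3 and 8.57 CPM with shRNA1 and at 2.82, 2.62 and 1.69 CPM with shRNA3. MYPN, a sarcomere protein that is nearly silent in NC at 0.808, 0.788 and 1.47 CPM, stood at 116, 86.5 and 90.1 CPM with shRNA1 and at 22.9, 26.6 and 28.8 CPM with shRNA3. All 3 shRNA3 libraries were thus below shRNA1 and above NC. MFAP5, a microfibril protein, was 4.25-fold lower, ADAMTS1, a secreted metalloproteinase, 6.58-fold lower, PRKCH, a protein kinase C, 5.25-fold lower and TMEM52B 7.98-fold lower with shRNA3. Library 3 was at 10.1 CPM in MFAP5, level with libraries 1 and 2, and at 5.17 CPM in ADAMTS1, 1.64 CPM in PRKCH and 3.97 CPM in TMEM52B, above both. DIO2, the deiodinase that activates thyroid hormone, stood at 6.77, 9.01 and 22.8 CPM with shRNA1 and at 0, 0 and 0.993 CPM with shRNA3. For ZACN and ZNF443 the shRNA3 libraries held so few counts that only a bound can be given, with 3 counts in each library as the floor. ZACN, a zinc-activated ion channel, was at least 35.2-fold lower and ZNF443, a zinc finger gene, at least 12.8-fold lower with shRNA3. With library 3 as the only shRNA3 library ZACN was not called (adjusted p = 0.132, edgeR).

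Genes of the matrix, integrin and mesenchymal list differed in both directions, with integrins, matrix proteins and transcription factors on either side. Of its 50 tested members 15 were called higher (30.0%) and 9 lower (18%) with shRNA3, beside 18.1% and 11.9% of all genes tested, with a median log2 fold change of 0.43 against 0.00 over all genes tested. The 9 lower members, each also kept, were SPARC, TGFB2, FN1, THBS1, ZEB1, TGFBR2, ZEB2, ITGA2 and SNAI2. FN1, fibronectin, stood at 181, 159 and 361 CPM with shRNA1 and at 96.4, 89.6 and 40 CPM with shRNA3. Here library 3 was the lowest of the 3, at 198% of the difference of the other 2. SNAI2, a transcription factor that represses epithelial genes, stood at 42.7, 47.2 and 46.4 CPM with shRNA1 and at 28.9, 27.8 and 20.5 CPM with shRNA3. ZEB1 and ZEB2, repressors of the same class, stood at 7.27 to 8.52 and 7.07 to 9.06 CPM with shRNA1 and at 1.93 to 4.27 and 2.15 to 4.37 CPM with shRNA3. ITGA2, the collagen-binding integrin subunit, fell from 182, 156 and 221 CPM to 89.3, 78.7 and 82.1 CPM, evenly over the shRNA3 libraries. TGFB2, a transforming growth factor beta ligand, was at least 8.74-fold lower against the same floor, and NC held 80.7, 43.2 and 55.4 CPM of it.

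The higher members of that list included both collagens and adhesion genes, and many were carried by libraries 1 and 2. Of the 15 called higher, 8 were kept: ITGB6, COL1A1, ITGB4, TWIST1, SERPINE2, COL6A1, CDH3 and CDH1. TWIST1, a transcription factor usually grouped with SNAI2 and ZEB1, moved the other way from them, at 10.8, 10.8 and 12.3 CPM with shRNA1 and 29.3, 32.6 and 19.5 CPM with shRNA3. ITGB4, the hemidesmosome integrin of basal keratinocytes, stood at 323, 301 and 530 CPM with shRNA1 and at 2000, 1685 and 606 CPM with shRNA3, so that library 3 cleared shRNA1 by little. COL1A1, a fibrillar collagen chain, stood at 17.4, 14.8 and 19.7 CPM with shRNA1 and at 80.4, 85.4 and 31.8 CPM with shRNA3. The median of the list turned with the libraries used, from 0.73 without library 3 to -0.47 without libraries 1 and 2.

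Of 7 markers of simple epithelium tested, 4 were called higher (57.1%) and 0 lower with shRNA3, beside 18.1% and 11.9% of all genes tested. The 4 called, KRT19, EPCAM, CLDN7 and CDH1, were all kept, and KRT7, KRT8 and KRT18 were called in neither direction. Without library 3 the counts were 4 higher and 1 lower, beside 31.0% and 32.4% of all genes tested in that fit. The median log2 fold change of these markers was 0.79 with all 3 libraries. It was 0.8 without library 3 and 0.56 without libraries 1 and 2. EPCAM, an epithelial adhesion molecule, stood at 132, 169 and 169 CPM with shRNA1 and at 416, 402 and 250 CPM with shRNA3. CLDN7, a tight junction claudin, stood at 12.8, 15.2 and 10.0 CPM with shRNA1 and at 47.8, 52.2 and 26.2 CPM with shRNA3, 3.31-fold higher (adjusted p = 0.0027, edgeR). CDH1, E-cadherin, stood at 41.1, 38.2 and 35.4 CPM with shRNA1 and at 79.4, 74.5 and 44.4 CPM with shRNA3, and NC was above both at 336, 322 and 310 CPM. CDH1 had a log2 fold change of 0.79 over all 3 libraries and 0.23 with library 3 alone (adjusted p = 0.263, edgeR). The summed level of these markers nevertheless overlapped, at 5280 to 6809 CPM with shRNA1 and 4893 to 7597 CPM with shRNA3.

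**Figure D3:**
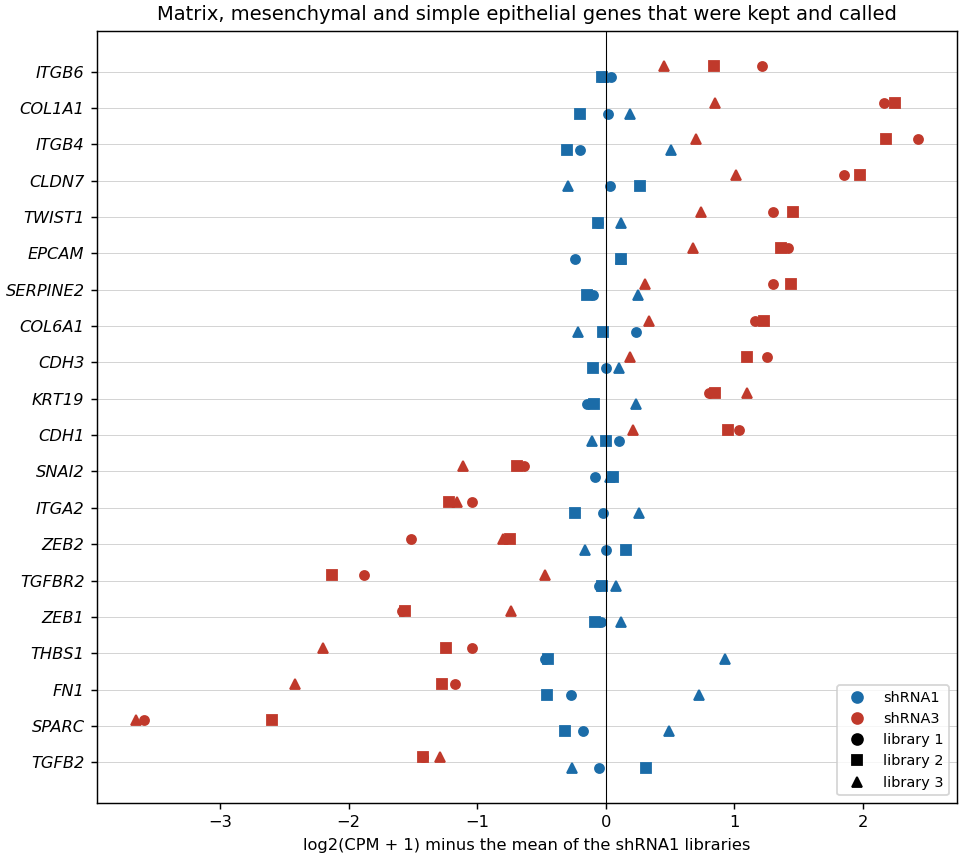
Every called and kept gene of the matrix, integrin and mesenchymal list and of the simple epithelium markers; the x axis is log2(CPM + 1) minus the mean of the 3 shRNA1 libraries, blue points are shRNA1, red points shRNA3, and shapes mark the library. In 6 of the 9 lower genes (SPARC, FN1, THBS1, SNAI2, ITGA2 and ZEB2) library 3 lies below library 1 or library 2, while among the higher genes of this plot KRT19 alone has library 3 as its highest.

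Keratins are the intermediate filament proteins of epithelia. Of 23 tested, 8 were called higher (34.8%) and 1 lower (4.35%), beside 18.1% and 11.9% of all genes tested, and the rest passed in neither direction. The list had a median log2 fold change of 0.54 over all 3 shRNA3 libraries, 0.49 without library 3 and 0.36 without libraries 1 and 2. KRT5, the keratin of the basal layer, stood at 16.5, 18.6 and 29.1 CPM with shRNA1 and at 84.8, 90.3 and 49.7 CPM with shRNA3. In NC it stood at 1013, 1049 and 965 CPM, so both hairpin groups were far below the control. KRT13, the keratin of the suprabasal oral mucosa, stood at 380, 421 and 468 CPM with shRNA1 and at 1510, 1324 and 702 CPM with shRNA3. NC held 0.202, 0.197 and 0.0507 CPM of KRT13, far below every hairpin library. KRT19 stood at 247, 257 and 323 CPM with shRNA1 and at 478, 493 and 587 CPM with shRNA3, and at 0.909, 0.591 and 1.01 CPM in NC. KRT16, a keratin of activated epidermis with near-identical pseudogenes that make its counts uncertain, was 5.41-fold higher with shRNA3, at 83.4, 80.5 and 27.9 CPM against 14.3 CPM or less with shRNA1. Of the cornified envelope and S100 genes 4 of 16 were called higher (25%) and 0 lower. PPL, periplakin, was the 1 called gene of that list that was kept, at 124, 124 and 77.3 CPM with shRNA1 and 228, 223 and 234 CPM with shRNA3.

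In the machinery of RNA interference 1 of 13 genes was called higher (7.69%) and 4 lower (30.8%). Over all genes tested the shares were 18.1% and 11.9%. The list had a median log2 fold change of -0.59. AGO2, the slicing Argonaute, stood at 243, 194 and 207 CPM with shRNA1 and at 162, 145 and 157 CPM with shRNA3, evenly over the 3 libraries and 1.39-fold lower (adjusted p = 0.0156, edgeR). NC and shRNA2 were lower still, at 56.4, 50.9 and 50.6 CPM and at 79.9, 80.2 and 78.3 CPM. DROSHA, the nuclear microprocessor nuclease, was 1.28-fold higher, at 113, 115 and 110 CPM with shRNA1 and 150, 143 and 138 CPM with shRNA3. TNRC6A and TNRC6B, the silencing partners of Argonaute, were 2.16-fold and 1.62-fold lower, and TARBP2, a partner of DICER1, was 1.82-fold lower. Their library 3 lay between libraries 1 and 2 and shRNA1, at 54, 29.4 and 38.7 CPM in turn, with log2 fold changes in library 3 alone of -0.33 for TNRC6B (adjusted p = 0.283, edgeR) and -0.31 for TARBP2 (adjusted p = 0.312, edgeR). With library 3 alone the median was -0.12, and the log2 fold change of TNRC6A was -0.48.

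The EGF family moved gene by gene. Of 13 tested ligands and receptors 2 were called higher and 3 lower, 15.4% and 23.1% beside 18.1% and 11.9% of all genes tested. TGFA, an EGFR ligand, stood at 179, 161 and 138 CPM with shRNA1 and at 110, 105 and 70.5 CPM with shRNA3. Its largest drop was in library 3, and its log2 fold change was -0.75 with a standard error of 0.17 (adjusted p = 0.0111, edgeR). NRG1, a ligand of ERBB3 and ERBB4, stood at 44.4, 43 and 84.5 CPM with shRNA1 and at 18.8, 22.4 and 32.5 CPM with shRNA3. NRG2, of the same class, stood at 1.29, 1.99 and 2.06 CPM with shRNA1 and at 4, 3.72 and 4.87 CPM with shRNA3. Downstream of these receptors, 14 of 33 ERK feedback and immediate early genes were called higher (42.4%) and 3 lower (9.09%). Over all genes tested the shares were 18.1% and 11.9%. JUND, an AP-1 subunit, stood at 39, 44.3 and 53.2 CPM with shRNA1 and at 314, 333 and 130 CPM with shRNA3, and was also called with library 3 alone (log2 fold change 1.53, adjusted p = 0.000332, edgeR). SPRY2 and SPRED3, inhibitors of the ERK pathway, were 1.54-fold and 2.4-fold lower, whereas SPRY1 was 2.05-fold higher. With library 3 alone SPRED3 was called (adjusted p = 0.0405), while SPRY2 (0.0555) and SPRY1 (0.0953) were not, by edgeR. Of the 14 higher genes 6 were kept and the rest were beyond shRNA1 in libraries 1 and 2 alone. The median of the list was 0.77 without library 3 and -0.26 without libraries 1 and 2.

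Both metallothioneins whose promoters are shown above were kept higher. These genes were chosen after their values were seen, and their near-identical sequences make the split of reads among them uncertain. MT2A stood at 497, 502 and 653 CPM with shRNA1 and at 1205, 1321 and 1101 CPM with shRNA3, a log2 fold change of 1.13 with a standard error of 0.2 (adjusted p = 0.00548, edgeR). MT1X stood at 49.4, 52 and 29.6 CPM with shRNA1 and at 57.8, 81 and 315 CPM with shRNA3. In MT1X library 3 was the outlying one, while in MT2A and MT1F the 3 libraries were close. MT1E, present in NC at 454, 849 and 986 CPM, was at 0 counts in all shRNA1 libraries and at up to 2 counts with shRNA3, and was not called between the hairpins (adjusted p = 0.276, edgeR). MT1B was called higher (adjusted p = 0.0463, edgeR) but not kept, at 0.199, 0.145 and 0.0516 CPM with shRNA1 and at 0, 0.364 and 14.4 CPM with shRNA3. MT1G was too low to be tested, with 0 counts in every shRNA1 library and 0, 0 and 2.33 CPM with shRNA3. In both of these library 3 alone was high. MT1A, MT1H, MT1L and MT1M had 2 counts or fewer in every shRNA1 and shRNA3 library.

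Genes of the ATF4 and unfolded protein response were called higher in 11 of 30 cases (36.7%) and lower in 1 (3.33%), beside 18.1% and 11.9% of all genes tested, with a median log2 fold change of 0.45. The median kept its sign at 0.55 without library 3 and 0.21 without libraries 1 and 2. ATF4 stood at 142, 169 and 206 CPM with shRNA1 and at 297, 330 and 250 CPM with shRNA3. ASNS stood at 9.6, 4.21 and 13.1 CPM with shRNA1 and at 32.6, 42 and 18.1 CPM with shRNA3, 3.44-fold higher (adjusted p = 0.0166, edgeR), and at 104, 54.3 and 81.6 CPM in NC. With library 3 as the only shRNA3 library the log2 fold change of ASNS was 1.03, against 1.78 with all 3. For ATF4 these values were 0.55 and 0.76. PSAT1, an enzyme of serine synthesis, stood at 53.7, 62.9 and 77.7 CPM with shRNA1 and at 92, 105 and 118 CPM with shRNA3, with library 3 the highest. SLC7A11, the cystine importer, went the other way, at 159, 159 and 188 CPM with shRNA1 and 30.9, 24.9 and 90 CPM with shRNA3. The chaperones HSPA5 and HSP90B1 were called higher through libraries 1 and 2 alone: HSPA5 stood at 759, 682 and 612 CPM with shRNA1 and at 3765, 3786 and 510 CPM with shRNA3. HERPUD1 was kept at 44.1, 40.9 and 24.7 CPM against 93.4, 89.1 and 44.4 CPM, with its library 3 just above shRNA1.

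**Figure D4:**
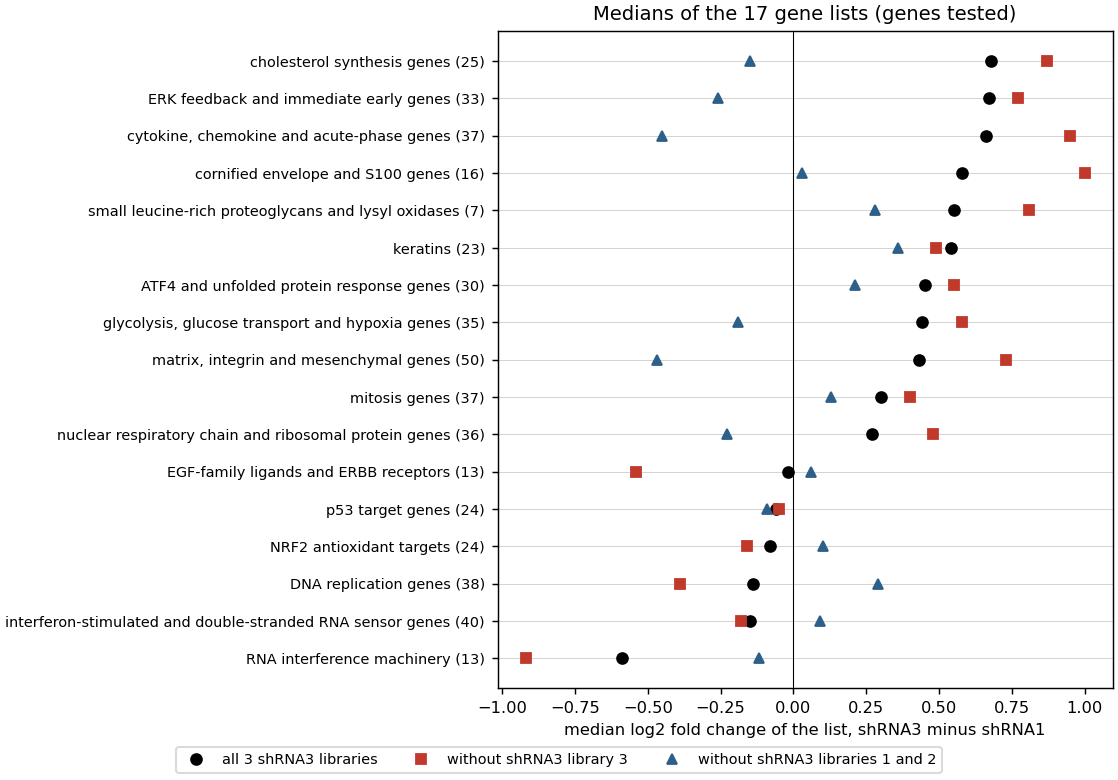
Median log2 fold change of shRNA3 minus shRNA1 on the x axis for 17 gene lists, with the number of genes tested in brackets; black circles use all 3 shRNA3 libraries, red squares leave out library 3 and blue triangles leave out libraries 1 and 2. The blue triangle lies on the other side of 0 from the red square for the cholesterol, ERK, cytokine, glycolysis, matrix, respiratory and ribosomal, EGF, NRF2, replication and interferon lists, and on the same side for the keratin, ATF4, mitosis, proteoglycan, cornified envelope, p53 and RNA interference lists.

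Cytokine and acute-phase genes were called higher in 9 of 37 (24.3%) and lower in 2 (5.41%), beside 18.1% and 11.9% of all genes tested. Their median of 0.66 became -0.45 without libraries 1 and 2. LCN2, the iron-siderophore binding protein lipocalin 2, was higher in all 3 libraries, at 3.73, 4.46 and 3.2 CPM with shRNA1 and 30.9, 28.5 and 12.8 CPM with shRNA3. IL1RN, the interleukin 1 receptor antagonist, stood at 0.846, 1.07 and 0.568 CPM with shRNA1 and at 9.12, 8.82 and 1.79 CPM with shRNA3. IL6 was at 1.39, 2.08 and 2.22 CPM with shRNA1 and at 0.148, 0 and 0 CPM with shRNA3, at least 9.65-fold lower against the floor of 3 counts. Of the interferon-stimulated and double-stranded RNA sensor genes 11 of 40 were called higher (27.5%) and 3 lower (7.5%), with a median of -0.15. OAS1, an RNA sensor, was kept at 23.6, 20.8 and 16.1 CPM against 61, 55.4 and 31.9 CPM, while IFIT2 was kept lower at 53.7, 49 and 81.1 CPM against 19.5, 16.3 and 35.7 CPM. IFI44 was 2.23-fold lower and IFI6 was 1.88-fold higher; with library 3 alone neither was called (adjusted p = 0.0601 and 0.13, edgeR). No common direction ran through that list.

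Among metabolic lists, glycolysis, glucose transport and hypoxia genes were called higher in 10 of 35 cases (28.6%) and lower in 4 (11.4%). Over all genes tested the shares were 18.1% and 11.9%. GPI, PFKL and ALDOA, enzymes of upper and middle glycolysis, were kept higher, and GPI stood at 511, 497 and 454 CPM with shRNA1 and 899, 937 and 752 CPM with shRNA3. PFKL stood at 94.2, 90.9 and 102 CPM with shRNA1 and at 245, 265 and 153 CPM with shRNA3, and DDIT4, a stress-induced inhibitor of mTORC1, was 2.16-fold higher, at 1025, 1042 and 574 CPM against 427 CPM or less with shRNA1. With library 3 as the only shRNA3 library the median of the list was -0.19, against 0.44 with all 3. Cholesterol synthesis genes were called higher in 11 of 25 cases (44.0%), yet FDPS was the only one of those 11 that was kept. It stood at 130, 122 and 133 CPM with shRNA1 and at 245, 230 and 143 CPM with shRNA3. INSIG1, a sterol-regulated protein of the endoplasmic reticulum, was one of the others, at 52.9, 47 and 51.8 CPM with shRNA1 and 386, 358 and 28.4 CPM with shRNA3. NSDHL, a sterol dehydrogenase, was the 1 gene called lower and it was kept, at 48.8, 43.5 and 41.6 CPM against 27.6, 29 and 33.7 CPM. Of the nuclear respiratory chain and ribosomal protein genes 6 of 36 were called higher (16.7%) and 1 lower (2.78%), both below the 18.1% and 11.9% of all genes tested. Without libraries 1 and 2 the median log2 fold change of that list was -0.23, against 0.27 with all 3 shRNA3 libraries. SDHA stood at 281, 256 and 243 CPM with shRNA1 and at 535, 526 and 313 CPM with shRNA3.

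Antioxidant genes driven by NRF2 were called higher in 6 of 24 cases (25%) and lower in 4 (16.7%), near the 18.1% and 11.9% of all genes tested, with a median of -0.08. TXNRD1, thioredoxin reductase, stood at 982, 881 and 686 CPM with shRNA1 and at 386, 367 and 371 CPM with shRNA3, a log2 fold change of -1.18 with a standard error of 0.14 (adjusted p = 0.00209, edgeR). The 3 shRNA3 libraries lay close together, below every shRNA1 library. AKR1C3, an aldo-keto reductase, was 1.84-fold higher, at 4.73, 3.73 and 2.37 CPM with shRNA1 and 6.45, 6.78 and 6.75 CPM with shRNA3. The drug exporter ABCC3 was 2.91-fold higher, at 18.7, 15.3 and 18.3 CPM with shRNA1 and 66.4, 62.2 and 23.9 CPM with shRNA3. With library 3 alone neither was called: the log2 fold change was 0.92 for AKR1C3 (adjusted p = 0.089, edgeR) and fell to 0.47 from 1.54 for ABCC3 (adjusted p = 0.0833, edgeR). Of the p53 targets 6 of 24 were called higher and 4 lower, the same shares as in the NRF2 list. BBC3, which encodes the pro-apoptotic protein PUMA, stood at 16.6, 14.8 and 11.9 CPM with shRNA1 and at 156, 157 and 28.9 CPM with shRNA3. DDB2, a DNA damage sensor, was 1.93-fold higher, whereas SESN1 and AEN were 1.82-fold and 1.63-fold lower. With library 3 alone AEN was called (adjusted p = 0.0296), while DDB2 (0.104) and SESN1 (0.114) were not, by edgeR.

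Mitosis genes were called higher in 13 of 37 cases (35.1%) and lower in 3 (8.11%), beside 18.1% and 11.9% of all genes tested. DNA replication genes were called higher in 5 of 38 (13.2%) and lower in 4 (10.5%), both below those shares. With library 3 as the only shRNA3 library, the median log2 fold change of the mitosis list was 0.13, against 0.3 with all 3. AURKB, the kinase of the chromosomal passenger complex, stood at 74.5, 83.7 and 97.3 CPM with shRNA1 and at 269, 241 and 113 CPM with shRNA3, while AURKA was lower, at 126, 138 and 149 CPM against 113, 96.3 and 114 CPM. CDT1, a replication licensing factor, was kept higher at 84.6, 84.1 and 72.5 CPM against 167, 153 and 129 CPM. ORC6, an origin recognition subunit, was kept lower at 73.6, 76.1 and 52.5 CPM against 31.2, 28.8 and 40.8 CPM. CCNE2, cyclin E2, was 3.03-fold lower, at 39, 49.3 and 37.7 CPM with shRNA1 and 5.34, 6.12 and 29.7 CPM with shRNA3. Library 3 of CCNE2 was at 17.7% of the difference of the other 2, and with it alone the log2 fold change was -0.48 (adjusted p = 0.135, edgeR) against -1.6. POLD1, the catalytic subunit of DNA polymerase delta, was 2.74-fold higher, at 220, 213 and 110 CPM against 87.6 CPM or less with shRNA1. NUSAP1, a spindle protein, was 1.85-fold higher, at 224, 231 and 140 CPM against 117 CPM or less. With library 3 alone neither POLD1 (adjusted p = 0.0546) nor NUSAP1 (0.0878) was called by edgeR. The replication list had a median of -0.14, of -0.39 without library 3 and of 0.29 without libraries 1 and 2.

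Small leucine-rich proteoglycans and lysyl oxidases, the family of FMOD and of enzymes that crosslink collagen, had 7 tested members. Of these 3 were called higher (42.9%) and 0 lower, beside 18.1% and 11.9% of all genes tested. LOXL1, a lysyl oxidase, was the 1 kept, at 4.88, 6.06 and 6.81 CPM with shRNA1 and 22.8, 25.5 and 14.2 CPM with shRNA3. Its log2 fold change was 1.81 with a standard error of 0.24 (adjusted p = 0.00248, edgeR), and 1.28 with library 3 alone (adjusted p = 0.00441, edgeR).

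The genes set apart by the rule had a different shape. TMEM265, a gene with 0 counts in all shRNA1 and shRNA2 libraries and in shRNA3 library 3, stood at 137 and 155 CPM in shRNA3 libraries 1 and 2 and at 35.6, 33.7 and 29 CPM in NC. KLF3-AS1, an antisense transcript, stood at 0.547, 1.5 and 0.568 CPM with shRNA1 and at 114, 154 and 0.844 CPM with shRNA3. In both genes library 3 read as shRNA1 did. ARRDC3, an arrestin-domain gene, stood at 102, 122 and 72 CPM with shRNA1 and at 16.2, 14 and 75.4 CPM with shRNA3, and HIRA, a histone H3.3 chaperone, at 138, 117 and 83.5 CPM and at 19.9, 18.9 and 85.3 CPM. The rule turns on small margins where library 3 lies close to shRNA1. On the higher side MYO7A was just inside it, with library 3 and shRNA1 library 3 both at 1.29 CPM as rounded, and the tie of TMEM265 at 0 counts put that gene outside it. SPTLC1 was just inside on the lower side, with the same pair at 112 CPM as rounded, and PBRM1 was just outside on that side, at 27.9 CPM in library 3 and 27.9 CPM in shRNA1 library 2 as rounded.

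Kept genes shared features that the rule did not use. The longest transcripts of genes kept higher had a median GC content of 55.4%, those of genes kept lower 45.0%, and those of all tested genes 49.1%. From under 40% to 60% GC and over, the share kept higher went from 6.81 to 29.7% of the genes tested and the share kept lower from 23.7 to 5.09%. Genes carried by libraries 1 and 2 alone differed less, with medians of 51.5% for the higher and 47.3% for the lower ones. On chromosome 19, which is rich in GC, 28.5% of 1173 tested genes were kept higher and 7.59% lower, and on chromosome 13, 7.29% of 288 were kept higher and 21.2% lower. Zinc finger genes named ZNF broke with their chromosome: of the 193 on chromosome 19, 12 were kept higher (6.22%) and 50 lower (25.9%), against 322 (32.9%) and 39 (3.98%) of its 980 other genes. Their median GC content was 43.0% against 59.8%. A correction for GC content and length, added after the data were seen, took the median GC content of genes kept higher to 47.7% and of genes kept lower to 51.7%. It left 1971 of the 2646 genes kept higher and 1875 of the 2652 kept lower. The called count was 5104 with it, and of the named genes AGO2 (adjusted p = 0.0606), TGFA (0.142), SPRY2 (0.0512), KRT19 (0.0564), AURKA (0.436), NDUFV2 (0.949), MYO7A (0.0844), SPTLC1 (0.944) and PBRM1 (0.0574) were then no longer called by edgeR.

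**Figure D5:**
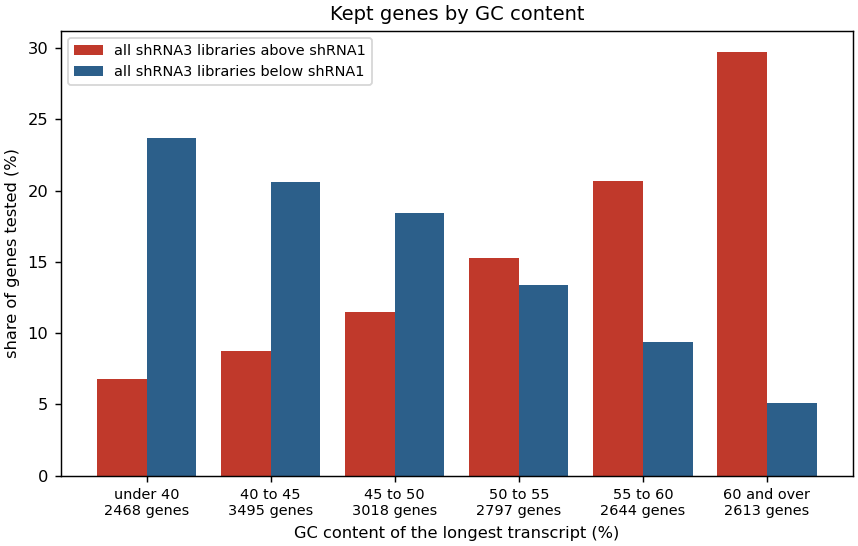
Bars give the share of tested genes that were kept, in percent, on the y axis, by the GC content of the longest transcript on the x axis; red bars are genes with all shRNA3 libraries above shRNA1 and blue bars genes with all below, and the number of genes stands under each pair. The red bars climb from 6.81% to 29.7% and the blue bars fall from 23.7% to 5.09%.

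Set beside the control, genes kept higher had a median log2 fold change against NC of -0.69 with shRNA1, -0.04 with shRNA2 and 0.39 with shRNA3. For genes kept lower the medians were 0.59, 0.10 and -0.32. These comparisons share the NC libraries, and the members were chosen on the shRNA1 and shRNA3 libraries, so the order of shRNA1 and shRNA3 is fixed by the choice; the shRNA2 libraries had no part in it. Single genes differed in where shRNA2 stood. In RMI2 the shRNA2 libraries read 36.5, 40.3 and 38.7 CPM, above NC at 24.7, 25.1 and 20.7 CPM, in the range of shRNA3. In IL7R they read 9.02, 9.02 and 8.14 CPM, and in FUT3 1.81, 1.47 and 1.99 CPM against 12.4, 11 and 12.4 CPM in NC and 4, 5.54 and 3.68 CPM with shRNA3. AGO2 was a case where shRNA2 lay beyond shRNA3, and KRT19 another, at 984, 918 and 960 CPM with shRNA2.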

How the data were processed

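Total RNA of SCC-15 cells was sequenced after an NEBNext Ultra preparation, per the labels' protocols. The authors deposited 1 table of estimated counts per gene for 12 libraries, of which 13.8% of values were not whole; they were rounded here. The submitters' processing notes name HISAT2, HTSeq 0.11.2 and GRCh38. Use of strand in counting is not given in the sources used here, so genes that overlap an opposite-strand gene are uncertain. Among the genes with the widest gaps these were DAPK2, FUT3, RMI2, UNC5B, MMP28, SPARC, DIO2, ZACN, ETS1, TMEM52B, PRKCH and MFAP5. Many other named genes also overlap such a gene, among them EGFR, AGO2, DROSHA, TNRC6A, KRT13, ASNS and IL6.

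Counts were filtered with filterByExpr, scaled by TMM and fitted with edgeR 4.0.16 (R 4.3.3) as 4 groups over 12 libraries, robust quasi-likelihood test, Benjamini-Hochberg adjustment over 17532 genes, two-sided. CPM are TMM-scaled. Standard errors are the log2 fold change over the root of F. Fold changes are ratios; bounds use 3 counts per library. The script was tested on simulated data. DESeq2 1.42.0, size factors, filters, thinning, a replicate block, leaving out libraries and a GC and length correction (lowess, added after seeing the data) were alternatives. Positions, GC content and lengths come from GENCODE annotation matched for 97.2% of genes; promoters are RefSeq.

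Named genes were called and kept, at a mean of 1 CPM or more, with library 3 at 50% or more of the difference and the 12 widest gaps each way; then up to 4 kept and called genes per list with the widest gap, the 2 widest carried genes each way, and the genes nearest the threshold. Others were chosen after their values were seen. Members and lists were chosen with earlier results of these data known. The labels do not say that libraries came from separate cultures, so p-values measure only the spread between these libraries, which may be technical.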

Additional observations from a re-analysis of the deposited data

Results flagged for a closer look

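In 57 of the 17532 genes tested, edgeR called shRNA1 and shRNA3 against NC in opposite directions and also against each other. Of these, 47 were higher and 10 lower with shRNA3, and all 57 were kept. MT1F and JUND were among the higher ones and IL7R and TXNRD1 among the lower ones. DBP, a circadian transcription factor, read 28.4, 24.6 and 28.1 CPM in NC, 8.91, 7.27 and 3.15 CPM with shRNA1 and 301, 280 and 14.3 CPM with shRNA3, so its shRNA3 library 3 was above shRNA1 and below NC. JAK3, a cytokine receptor kinase, read 6.97, 7.83 and 8.17 CPM in NC, 1.49, 2.42 and 1.96 CPM with shRNA1 and 20.4, 21.8 and 6.46 CPM with shRNA3. In both of these the opposite direction against NC came from libraries 1 and 2. The same held in other higher genes, among them ICAM5, FA2H, ZNF385A and CELSR1, where library 3 lay below every NC library. In MT1F, JUND and RMI2, among others, all 3 shRNA3 libraries were above NC.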

How the results depend on the processing

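The 5258 calls became 0 in a fit of the 6 libraries alone (0 in each direction), 1547 without shRNA3 libraries 1 and 2 (932 higher, 615 lower), 1249 at an adjusted p under 0.01 (930 higher, 319 lower) and 2971 at a log2 change of 1 or more (1991 higher, 980 lower). Leaving out 1 library gave 1788 to 11573 calls, 1230 to 5663 higher and 434 to 5910 lower. The other fits, including DESeq2 (6762) and no filter (3955), stayed within 1.5 times. The kept count was 718 at a gap of 0.5 or more in log2(CPM + 1) (450 higher, 268 lower), 2239 where library 3 reached 50% of the difference (1181 higher, 1058 lower), and 5699 to 12692 with 1 library left out (2842 to 6266 higher, 2853 to 6426 lower). The first 2 settings can only lower the kept count, and leaving out a library can only raise it. Deviations of same-numbered shRNA1 and shRNA3 libraries correlated at 0.027, -0.096 and -0.047, and those of different-numbered ones at -0.111 to 0.111. As shRNA3 libraries 1 and 2 stand apart from library 3, these values cannot show whether the numbers pair the libraries. With a replicate block 4458 genes were called, and 3991 with the block and the GC and length correction.

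Without shRNA3 libraries 1 and 2 the list medians were -0.12 (RNA interference), 0.09 (interferon), -0.26 (ERK), -0.19 (glycolysis), 0.36 (keratins), 0.03 (cornified envelope), -0.47 (matrix), -0.45 (cytokines), 0.29 (replication), 0.21 (ATF4), -0.15 (cholesterol), 0.1 (NRF2) and -0.23 (respiratory and ribosomal). With the GC and length correction they were 0.08 (interferon), 0.44 (keratins), 0.3 (cornified envelope), 0.11 (p53) and 0.15 (NRF2), and with the replicate block added 0.05, 0.42, 0.26, 0.12 and 0.15. At a mean of 50 counts or more they were 0.01 (interferon), 1.02 (proteoglycans), -0.42 (EGF family) and 0.79 (keratins). The EGF family was at 0.2 in the 6 libraries alone and -0.35 when thinned. Leaving out 1 library gave -0.54 to 0.27 (EGF family), -0.16 to 0.05 (NRF2), 0.38 to 1.0 (cornified envelope), -0.18 to 0.01 (interferon), 0.45 to 0.69 (keratins) and -0.24 to 0.02 (p53). Of 88 named genes, 51 kept direction and call without libraries 1 and 2, 35 lost the call, and TMEM265 (log2 fold change 0.0) and KLF3-AS1 (-0.04) lost both the call and the difference; in the 6 libraries alone 87 of 87 lost it, without the filter 15 and with the replicate block 5. The cause of these shifts was not tested. Genes at a few counts, such as FMOD, ZACN and IL6, are limited by depth.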
